A study of Mus musculus with 6 samples.

Results

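The genes of the cytosolic ribosome encode the proteins that, together with ribosomal RNA, form the large and the small subunit of the particle that translates messenger RNA. Members were chosen by symbol: Rpl or Rps followed by a number and at most 1 letter, plus Rplp0, Rplp1, Rplp2 and Rpsa, protein-coding, whose level averaged 1 FPKM or more. FPKM is the fragment number scaled by gene length and library size. Of the 54146 genes in the files, 83 symbols matched, 80 of them were protein-coding, and 79 passed the level and are described here. They comprised 46 large subunit genes, 30 small subunit genes and 3 paralogs, Rpl3l, Rpl39l and Rps27l. Each had been measured in 6 Illumina libraries, made from 1 µg of Trizol-extracted total RNA of mouse skin. The 3 control libraries (CON) came from the skin of control mice, and the 3 stress libraries (CRS) from mice under chronic restraint stress, in which an animal is held immobile again and again, for 12 weeks. Sex, age, strain and body site are not given in the sources used here, and each library is taken as 1 mouse because the design names 3 mice a group.

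Ribosomal protein genes are known as housekeeping genes that every cell transcribes at high and coordinated levels, since a subunit is assembled from 1 copy of most of its proteins. Their messenger RNAs are short and begin with a C followed by a run of pyrimidines, the 5' terminal oligopyrimidine (TOP) tract, through which the kinase mTOR and the protein Larp1 control their translation. In skin, the growing hair follicle and the basal epidermis are sites of high protein synthesis.

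Sets of 3 values follow the order of replicates 1 to 3. The libraries held 13.3 to 25.7 M fragments (M for mega). CON replicate 1 and CRS replicate 2 stood apart, and results are given with and without them where they turn on either. CON replicate 1 had 15.3% of its fragments on mitochondrially encoded genes, against 2.50% to 4.19% in the other 5. Its Xist level was 2.80 FPKM, against 0.0221 to 0.168 FPKM elsewhere, while the Y-linked gene Ddx3y was at 8.68 to 32.7 FPKM in all 6, so whether that library holds 1 animal was not tested. CRS replicate 2 had the lowest FPKM total, 358190, where the other 5 summed to 456513 to 609908. Skin markers were present in every library: 8 of 8 keratinocyte genes were tested and their summed level was 2169 to 2502 FPKM in CON and 2551 to 3247 FPKM in CRS. Of 8 hair shaft keratin genes 7 were tested, and the sum was 1698 to 5949 FPKM in CON and 5749 to 11055 FPKM in CRS. All 6 fibroblast markers were tested, with a sum of 233.9 to 1277 FPKM in CON and 803 to 1274 FPKM in CRS.

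The ribosomal protein genes did not separate the 2 groups. In FPKM as deposited they separated single libraries, with CRS replicate 2 far below the 3 controls and CRS replicates 1 and 3 mostly above them. The latter depended in part on scaling. The median log2 deviation of the 79 genes from their own means was taken in each library. In CRS replicates 1 and 3 it lay above all controls under median-ratio scaling, equal FPKM sums and a correction for gene length. Without mitochondrial genes in the sums it still did, narrowly, at 0.303 in CRS replicate 3 against 0.298 in CON replicate 3. Under quantile normalization it was 0.059, 0.17 and 0.34 in CON. In CRS it was 0.30, -0.97 and 0.17, so CRS replicates 1 and 3 then lay within the control range. Together the 79 genes made up 10.4%, 15.8% and 16.8% of all FPKM in CON replicates 1 to 3. In CRS replicates 1 to 3 they made up 19.99%, 6.03% and 17.2%. The group means were 14.3% ± 3.41 in CON and 14.4% ± 7.40 in CRS (SD, n = 3). The CON values lay inside the CRS range. Fewer cells rich in these messenger RNAs and less of them per cell cannot be told apart in bulk tissue. Without the mitochondrial genes in the total, the shares were 14.6%, 17.1% and 18.3% in CON and 21.2%, 6.41% and 18.1% in CRS, in the same replicate order. That brought CON replicate 1 nearer to the other controls and left CRS replicate 2 at the bottom.

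**Figure D1:**
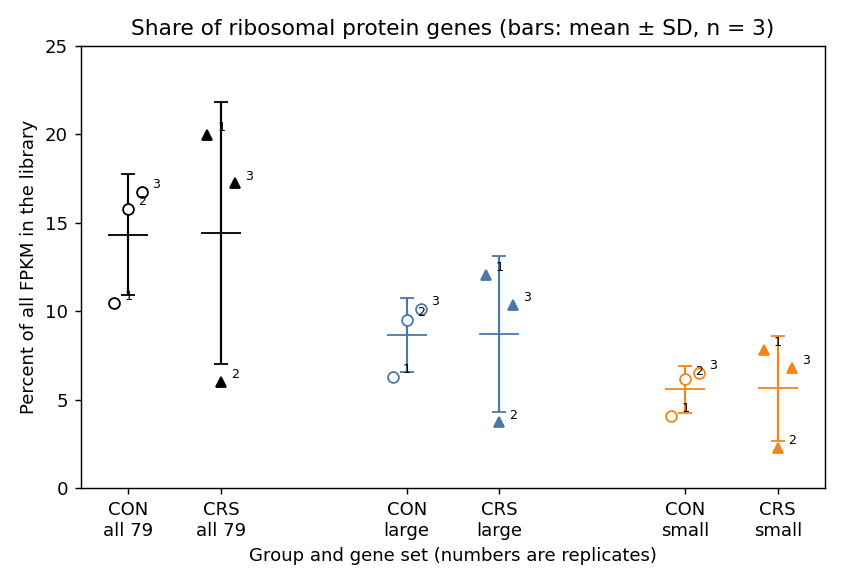
Percent of all FPKM in each library that fell on ribosomal protein genes (y axis), for all 79 genes and for the large and small subunits (x axis), with open circles for CON, filled triangles for CRS, replicate numbers beside them and bars for mean ± SD (n = 3). The CON and CRS means nearly coincide at 14.3% and 14.4%, while CRS replicate 2 lies at 6.03%, below every control.

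Both subunits had the same order of libraries. The large subunit held 6.30%, 9.53% and 10.1% of the FPKM in CON and 12.1%, 3.72% and 10.4% in CRS. The small subunit held 4.08%, 6.19% and 6.54% in CON and 7.84%, 2.27% and 6.79% in CRS. The ratio of their sums was 1.54 to 1.55 in CON and 1.53 to 1.64 in CRS, and the highest ratio was that of CRS replicate 2. The balance of the subunits thus varied far less than the level of the set.

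Gene by gene the order of the libraries was close to uniform. All 76 subunit genes had their lowest value in CRS replicate 2, whereas 27.2% of the 28389 genes tested had theirs there. The highest value of 59 of the 76 was in CRS replicate 1, of 11 in CRS replicate 3, of 3 in CON replicate 2 and of 3 in CON replicate 3. Among the controls, replicate 1 was lowest for 73 of the 76. The control mean was 1.86 to 5.56 times the value of CRS replicate 2, with a median of 3.26 times. The mean of CRS replicates 1 and 3 was 0.814 to 2.19 times the control mean, with a median of 1.60 times. These counts describe libraries picked out after their values were seen and carry no test. The shares of all genes for the highest library and for the lowest control are not reported here.

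**Figure D2:**
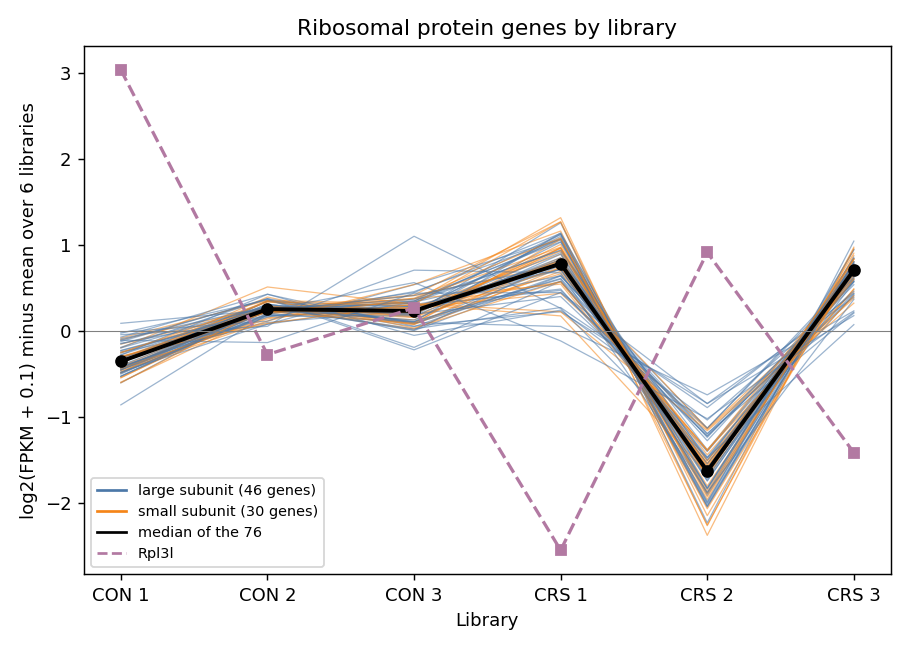
Each thin line joins the values of 1 ribosomal protein gene over the 6 libraries (x axis) as log2(FPKM + 0.1) minus that gene's mean (y axis), blue for the large and orange for the small subunit, with the median of the 76 in black and Rpl3l dashed. The bundle is lowest in CRS replicate 2 and highest in CRS replicates 1 and 3, and Rpl3l runs against it.

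The spread between libraries was correspondingly wide in CRS. Over the 6 libraries the SD of log2(FPKM + 0.1) had a median of 0.90 over the 79 genes, against 0.67 over all genes tested and 0.77 over the 491 other genes averaging 100 FPKM or more. Within CON the median SD was 0.36, below the 0.43 of all genes tested, and within CRS it was 1.37, above their 0.76. The SD was larger in CRS than in CON for 78 of the 79 genes, and for 71.7% of all genes tested. With CRS replicate 2 left out, the median SD over the other 5 libraries was 0.48, below the 0.57 of all genes tested. Once each library's median deviation of the 79 genes was subtracted, the median SD that remained was 0.20. The same step, with their own medians, left 0.60 for the other genes of at least 100 FPKM. For the 233 other coding genes under 600 nt at that level it left 0.50. Neither of these sets is a single gene family. That residual SD was under 0.2 for 39 of the 76 subunit genes and at least 0.3 for 21, up to 0.59 for Rpl13a.

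The TOP tract could be looked for at annotated start sites, since RefSeq promoter sequences of build GRCm38.p6 were at hand for 56 of the 76 subunit genes. The 5 genes with the highest level among those whose annotated start is a C followed by at least 4 pyrimidines are shown because this tract is the sequence feature for which the family is known. Each sequence runs from 30 bases before to 20 bases after the start, with the tract in capitals.
Rps6: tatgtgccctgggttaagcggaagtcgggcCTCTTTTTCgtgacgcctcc
Rpl38: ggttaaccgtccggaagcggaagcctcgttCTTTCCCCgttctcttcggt
Rps18: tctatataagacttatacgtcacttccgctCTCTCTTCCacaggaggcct
Rpl35: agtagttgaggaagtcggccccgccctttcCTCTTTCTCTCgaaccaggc
Rps27: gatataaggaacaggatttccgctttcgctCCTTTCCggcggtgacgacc
They lie at chr4:86857348-86857397 on the minus strand, chr11:114668550-114668599 on the plus strand, chr17:33955646-33955695 on the minus strand, chr2:39005112-39005161 on the minus strand and chr3:90213629-90213678 on the minus strand, in the order shown. Such a tract began at an annotated start in 13 of the 56 genes, or 23.2%, and in 3.01% of the 27025 genes with an entry. The motif CTTTCC, which can be part of a tract, lay in these 50 bases on either strand in 11 of the 56, or 19.6%, and in 5.30% of all genes. In the full 300 bases of an entry it lay in 29 of the 56, or 51.8%, and in 29.3% of all genes. CCGGAAG, the core that ETS factors bind, lay on either strand of the full 300 bases in 23 of the 56, or 41.1%, and in 9.93% of all genes. It can share its CC with a CTTTCC before it. TATAAA lay there in 6, or 10.7%, against 15.7%. A match describes letters near an annotated start, which may not be the start used in skin. The deviation of log2(FPKM + 0.1) from a gene's mean over the libraries had, in CRS replicate 2, a median of -1.64 for the 13 genes with a tract at the start and -1.59 for the 43 without.

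Rps6, the small subunit protein that is phosphorylated downstream of mTOR, was at 969.1, 1399 and 1386 FPKM in the controls and at 1559, 520.5 and 1498 FPKM under stress. Rpl38, known in mice for its role in translating Hox transcripts, was at 610.2, 895.6 and 1232 FPKM in the controls and at 1776, 206.1 and 1484 FPKM under stress. Rps18 was at 610.2, 1004 and 1007 FPKM in the controls and at 1439, 266.9 and 1401 FPKM under stress, and Rpl35 at 551.3, 892.5 and 985.6 FPKM in the controls and at 1614, 196.2 and 1388 FPKM under stress. In all 4 genes CRS replicates 1 and 3 lay above and CRS replicate 2 below all controls, so the groups overlapped. For Rps6, with a coding length of 747 nt, the deviation in CRS replicate 2 was smaller than for Rpl38 with 210 nt.

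Among the proteins of the stalk, the arm of the large subunit that recruits translation factors, Rplp1 had the highest level of the set. Rplp1 was at 4325, 7326 and 7671 FPKM in the controls and at 13332, 1498 and 10676 FPKM under stress. It was the gene with rank 5 by mean FPKM in the whole table and held 6.94% to 11.4% of the set's FPKM. CRS replicates 1 and 3 lay above the controls and CRS replicate 2 below them, so the groups overlapped. Rplp0, the base of the stalk, was at 2021, 3446 and 2832 FPKM in the controls and at 4395, 1289 and 4457 FPKM under stress, in the same order of high and low. CRS minus CON was 0.12 for it on the log2 scale (SE 0.81), and it was -0.13 when libraries were scaled to equal FPKM sums without mitochondrial genes. Rplp2, the partner of Rplp1, was at 327.3, 350.2 and 723.6 FPKM in the controls and at 404.9, 121.5 and 355.0 FPKM under stress. CON replicate 3 stood above the other 5 libraries here, which no other stalk gene showed. The log2 fold change of Rplp2 was -0.75 (SE 0.59), and it was -0.20 without CRS replicate 2 and -0.38 without CON replicate 3.

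Of the large subunit, Rpl41, which encodes a very short basic peptide (coding length 75 nt), was at 1338, 2776 and 3306 FPKM in the controls and at 5328, 659.6 and 4665 FPKM under stress. Its log2 fold change of 0.14 (SE 0.97) was a small difference of means across a range of 8.08 times between libraries. Rpl39, another very small protein near the exit tunnel for the nascent chain, was at 379.2, 711.0 and 663.6 FPKM in the controls and at 1377, 122.8 and 1189 FPKM under stress, a range of 11.2 times. Rpl37 was at 314.5, 503.9 and 473.5 FPKM in the controls and at 971.1, 123.6 and 798.1 FPKM under stress, with a log2 fold change of 0.12 (SE 0.78). These 3 short genes had CRS values on both sides of all CON values. The longest coding sequence, 1257 nt, belonged to Rpl4, at 1176, 1537 and 1283 FPKM in the controls and at 1241, 715.5 and 1408 FPKM under stress. Its range between libraries, 2.15 times, was the smallest of the 76. Rpl3, which lies close to the catalytic centre, was at 506.1, 825.3 and 638.3 FPKM in the controls and at 717.7, 342.4 and 805.7 FPKM under stress, a range of 2.41 times. Rpl7a was at 515.8, 695.6 and 582.3 FPKM in the controls and at 691.5, 308.7 and 777.1 FPKM under stress. In these long genes, which were named for their small spread, CRS replicates 1 and 3 lay among the controls or close to them, and CRS replicate 2 was low by less. Rpl5 (891 nt) was similar. Other long members differed: in Rplp0 (951 nt), Rpsa (885 nt) and Rps2 (879 nt) CRS replicates 1 and 3 both lay above all controls.

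Among the small subunit genes of the symbol rule, the highest FPKM levels were those of Rps15 and Rps14. Rps15, a protein of the subunit's head, was at 1641, 2489 and 2694 FPKM in the controls and at 4152, 748.0 and 3596 FPKM under stress. Rps14 was at 1305, 2331 and 2088 FPKM in the controls and at 3568, 469.0 and 3415 FPKM under stress. The widest range of the 76 was that of Rps27, a zinc finger protein of the subunit, with 447.0, 771.5 and 868.6 FPKM in the controls and with 1567, 125.1 and 1262 FPKM under stress. Its highest library was 12.5 times its lowest, and its control mean was 5.56 times CRS replicate 2. Rps29, also a small zinc finger protein, was at 1056, 1835 and 2024 FPKM in the controls and at 3975, 332.1 and 3134 FPKM under stress. Rps21 was at 480.9, 718.1 and 963.8 FPKM in the controls and at 1483, 138.8 and 1218 FPKM under stress. All of these followed the order of the bundle. Rps27a, which encodes ubiquitin fused to a ribosomal protein, was at 521.7, 852.2 and 741.0 FPKM in the controls and at 674.9, 188.9 and 1069 FPKM under stress, with CRS replicate 1 among the controls. CRS minus CON was -0.42 for it on the log2 scale (SE 0.69), and 0.30 without CRS replicate 2. Rps15a was at 142.3, 262.8 and 250.5 FPKM in the controls and at 411.8, 67.3 and 385.4 FPKM under stress, with a log2 fold change of 0.063 (SE 0.71) and one of -0.025 with libraries scaled to equal FPKM sums.

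A few members had low levels for a ribosomal protein gene. Rpl24 was at 4.47, 4.38 and 6.57 FPKM in the controls and at 6.61, 2.64 and 5.47 FPKM under stress, the lowest of the 79 and resting on as few as 70 fragments. Rpl13a, a protein also known for an extraribosomal role in silencing inflammatory transcripts, was at 29.97, 33.4 and 41.6 FPKM in the controls and at 26.0, 13.8 and 32.8 FPKM under stress. Its log2 fold change of -0.60 (SE 0.38) was the lowest after those of Rpl3l and Rplp2, and it was -0.25 without CRS replicate 2. Rpl21 was at 159.5, 174.1 and 262.6 FPKM in the controls and at 256.9, 43.8 and 207.4 FPKM under stress, with a log2 fold change of -0.55 (SE 0.66) that was 0.25 without CRS replicate 2. Rps13 was at 162.8, 246.1 and 238.5 FPKM in the controls and at 288.0, 74.6 and 258.2 FPKM under stress. Ribosomal protein genes have many processed pseudogenes, near-identical copies without introns, and reads could be split between a gene and its copies or dropped. The files listed 297 copies named after 59 of the members, and 130 of them averaged 1 FPKM or more. For Rpl21 the copies summed to 366.4 FPKM on average, above the 184.0 FPKM of the gene, and for Rps10 to 550.3 FPKM, against 381.6 FPKM. Levels and differences of such members are uncertain. In sum the copies kept to 9.03% to 9.71% of the members' FPKM in all 6 libraries. Only copies with -ps in the symbol were counted, so pseudogenes under other symbols, such as Rpl6l, are left out. Members with few or no counted copies may thus still share reads with others.

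At the lower limit of 1 FPKM the set had a clear gap. Just inside lay Rpl24, Rpl39l and Rpl3l with means of 5.03, 12.3 and 13.6 FPKM. Just outside lay Rpl10l alone, a retrogene known from the testis, which was listed at 0 in 5 libraries and at 0.0508 FPKM in CRS replicate 1, with its partner Rpl10 at 554.8 to 822.4 FPKM in CON and 275.8 to 944.6 FPKM in CRS. Rps4l, Rpl6l and Rpl32l matched by name but are typed as pseudogenes. Rps4l was at 21.9, 31.8 and 37.4 FPKM in the controls and at 18.6, 34.0 and 24.3 FPKM under stress, while Rps4x, the X-linked small subunit gene it resembles, was at 1304, 2154 and 1782 FPKM in the controls and at 2731, 641.3 and 2603 FPKM under stress.

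The 3 paralogs differed in how they followed the set. Rpl3l, which replaces Rpl3 in striated muscle, was at 53.2, 5.28 and 7.74 FPKM in the controls and at 1.01, 12.2 and 2.34 FPKM under stress. It ran against the bundle, high in CON replicate 1 and low in CRS replicate 1, and the groups overlapped. Its log2 fold change was the most negative of the 79, -2.03 (SE 1.03, limma unadjusted p = 0.0836, exact permutation p = 0.3). Leaving out CON replicate 1 gave -1.01, and leaving out CRS replicate 2 instead gave -2.99. Of the sum of Rpl3l and Rpl3 it made up 9.52% in CON replicate 1 and 0.141% to 3.43% in the other libraries. The 8 skeletal muscle markers were all tested and all had a fold change below 0, and 1 of them, Tnnc2, was listed at 0 in 3 libraries. They summed to 11850, 1353 and 2346 FPKM in the controls and to 410.9, 2647 and 739.2 FPKM under stress, the same order of the 6 libraries as Rpl3l. Their part in the value of Rpl3l was not tested.

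**Figure D3:**
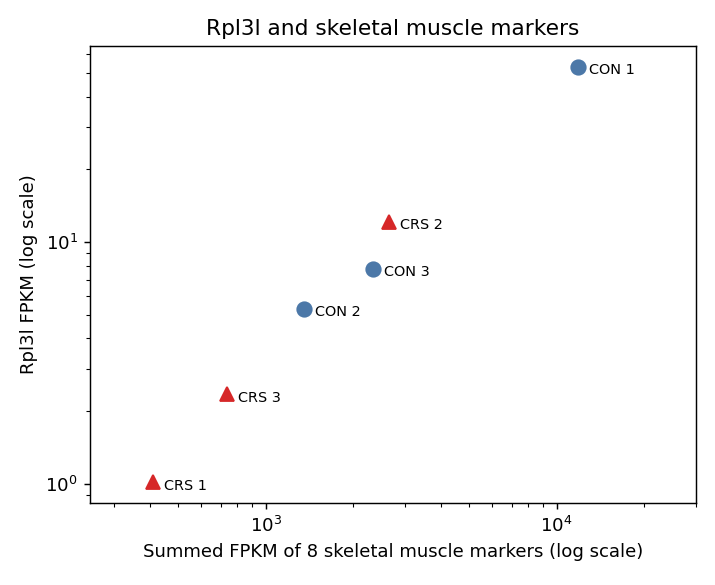
Rpl3l level (y axis, FPKM, log scale) against the summed level of 8 skeletal muscle marker genes (x axis, FPKM, log scale) in each of the 6 libraries, circles for CON and triangles for CRS. The libraries have the same order on both axes, from CRS replicate 1 at 1.01 FPKM to CON replicate 1 at 53.2 FPKM.

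Rpl39l, a paralog of Rpl39 known from the testis, was at 4.01, 10.8 and 18.1 FPKM in the controls and at 20.3, 3.13 and 17.7 FPKM under stress. CRS replicate 2 was lowest and CRS replicate 1 highest, as in most of the bundle. CRS minus CON was 0.17 for it on the log2 scale (SE 0.78), and -0.075 with libraries scaled to equal FPKM sums without mitochondrial genes. It made up 1.05% to 2.66% of the sum of both genes. Rps27l, a paralog of Rps27 known as a p53 target, was at 228.7, 368.2 and 360.3 FPKM in the controls and at 481.0, 88.9 and 486.8 FPKM under stress. It also followed the bundle, but over a narrower range than Rps27. Its share of the sum of both was highest in CRS replicate 2, at 41.5%, where the controls held 29.3% to 33.8% and CRS replicates 1 and 3 held 23.5% and 27.8%.

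Whether stressed and control skin differed was tested with limma on log2(FPKM + 0.1), fitted over all 28389 genes tested. Of the 79 genes 0 passed an adjusted p of 0.05 in either direction, and over all genes 0.0% passed higher and 0.0% passed lower. The smallest unadjusted p was the 0.0836 of Rpl3l, and the smallest limma adjusted p of the 79 was 0.9999. At an unadjusted p under 0.05, 0 of the 79 were higher and 0 lower, against 0.919% higher and 1.63% lower among all genes tested, or 2.55% in either direction. In 0 of the 79 did the groups not overlap, against 1.65% higher and 5.19% lower among all genes, or 6.84% in either direction. The median log2 fold change of the set was -0.083, with 16 genes above 0 and 63 below, beside a median of -0.20 over all genes tested, of which 9132 were above 0 and 19257 below. Over the 76 subunit genes the fold changes ran from -0.75 to 0.14 on the log2 scale, with SEs of 0.38 to 1.12. Differences of the size of these SEs were not detectable. The mean of the summed FPKM pointed the other way, at 67888 ± 15894 FPKM for the controls (SD, n = 3) and 81225 ± 51985 FPKM under stress (SD, n = 3). High libraries weigh more on a linear than on a log scale.

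The direction of the set depended on which libraries were kept, and most of all on CRS replicate 2. Without it the median log2 fold change was 0.70, beside -0.21 over all genes, and 75 of the 79 genes were above 0. In 66 of them CRS replicates 1 and 3 both lay above all 3 controls, against 7.46% of all genes tested, and in 1, Rpl3l, both lay below, against 27.4%. At an unadjusted p under 0.05, 8 genes were then higher, against 2.49% of all genes tested, and 1, again Rpl3l, was lower, against 14.6%. They included Rps20 at a log2 fold change of 0.95 (limma adjusted p = 0.219), Rpl37 at 1.06 (adjusted p = 0.246) and Rpl39 at 1.18 (adjusted p = 0.270), and 0 of the 79 passed the adjusted threshold. Leaving out CON replicate 1 as well, the median was 0.50 with 74 genes above 0, and 9 were higher at an unadjusted p under 0.05, against 2.71% of all genes. Without CRS replicate 1 or CRS replicate 3 in turn, the median was -0.52 or -0.45, with 0 genes above 0. Leaving out CON replicate 1, 2 or 3 alone gave medians of -0.28, 0.011 and 0.020. Scaling mattered too: under median-ratio scaling the median was 0.14 with 68 genes above 0, beside -0.0084 over all genes. With a correction for merged exon length it was 0.12, beside 0.022, and under quantile normalization it was -0.37, beside -0.024.

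**Figure D4:**
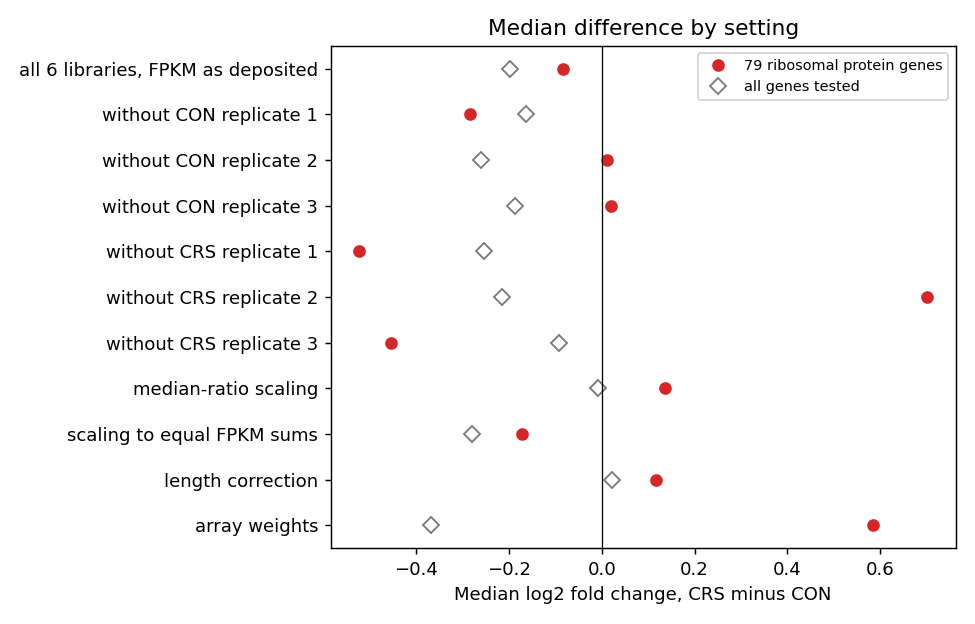
Median log2 fold change, CRS minus CON (x axis), of the 79 ribosomal protein genes (filled circles) and of all 28389 genes tested (open diamonds) for the settings shown (y axis). The ribosomal protein median moves from -0.52 without CRS replicate 1 to 0.70 without CRS replicate 2, while that of all genes stays between -0.37 and 0.022 over these settings.

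What the members share beyond their name includes their size. The coding sequences of the 76 were 75 to 1257 nt long, with a median of 454.5 nt. Within the set, the deviation of a gene in CRS replicate 2 from its own mean was the less negative the longer its coding sequence, with a Pearson r of 0.78 across the 76 genes, which share the library and are not independent. In CRS replicates 1 and 3 the relation was inverse, with r of -0.71 and -0.60. In the controls r was 0.51, 0.42 and -0.37. Among 4029 other coding genes averaging 10 FPKM or more, r was 0.65 in CRS replicate 2, -0.40 in CRS replicate 1 and -0.56 in CRS replicate 3. Of the other genes under 300 nt 65.9% were lowest in CRS replicate 2, and of those from 300 to under 600 nt 55.4%. The median ribosomal protein gene lay below the median of other genes of like length there. From 300 to under 600 nt the median deviation in CRS replicate 2 was -1.66 for 46 members and -0.56 for 828 other genes. Under 300 nt it was -2.14 for 9 members and -1.03 for 214 others, and from 600 to under 900 nt it was -1.22 for 18 members and -0.15 for 813 others. In CRS replicate 1 the members and the others stood at 0.83 and 0.096 in the first of these bins, at 1.17 and 0.47 in the second and at 0.56 and -0.13 in the last. When each library's trend over merged exon length was subtracted, the member median was -1.38 in CRS replicate 2 and 0.82 and 0.69 in CRS replicates 1 and 3, with the controls at -0.42, 0.084 and 0.18. Merged exon length differs from coding length, and how much of the relation with coding length this removed was not tested. The part of library preparation or RNA quality in these values was not tested.

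**Figure D5:**
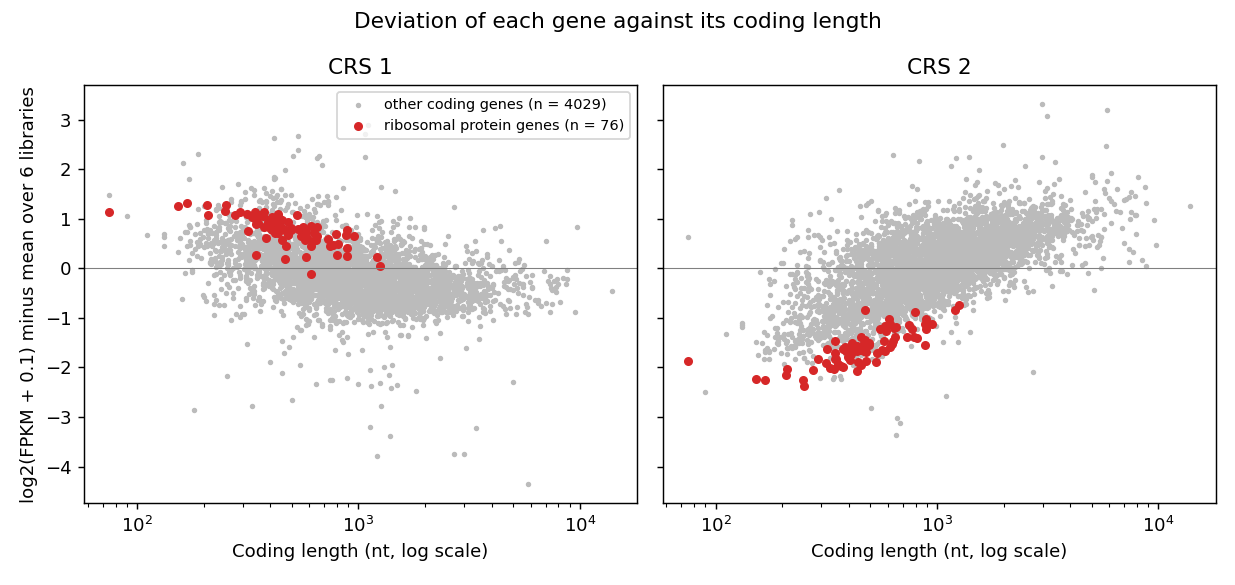
Deviation of each gene from its mean over the 6 libraries (y axis, log2 scale) against coding length (x axis, nt, log scale) in CRS replicates 1 and 2, with 76 ribosomal protein genes in red and 4029 other coding genes in grey. In CRS replicate 2 the red points lie below 0 along the lower edge of the grey cloud, with r of 0.78 across the red points, and in CRS replicate 1 nearly all lie above 0.

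Levels between members are comparable only per length, and the length used matters. FPKM was scaled by the merged exons of each gene, which for these genes had a median of 1806 nt, while the main coding transcript had a median of 705 nt. The mean FPKM of the 76 genes ran from 5.03 to 7471, with a median of 732.0, and the 90th percentile was 4.85 times the 10th. Rescaled to the main coding transcript, the 90th percentile was 2.91 times the 10th, so the levels of the set lay closer together. The highest rescaled level was then that of Rps14, 8806 FPKM, followed by Rpl41 with 8051 and Rplp1 with 7471 FPKM.

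Ribosomal proteins and relatives outside the symbol rule behaved alike where they were abundant. Rps3a1 was at 2092, 3452 and 3594 FPKM in the controls and at 3630, 1044 and 3906 FPKM under stress. Fau, a fusion of a ubiquitin-like protein with a small subunit protein, was at 803.1, 1133 and 1256 FPKM in the controls and at 1960, 317.1 and 1595 FPKM under stress. Rack1, a scaffold on the small subunit, was at 328.2, 509.6 and 428.5 FPKM in the controls and at 582.3, 206.6 and 623.6 FPKM under stress. All 3 had CRS replicate 2 lowest and CRS replicates 1 and 3 highest. Of the 7 genes in this list 0 passed the test, 2 were above 0 and 5 below, with log2 fold changes of -0.27 (SE 0.81) for Rps3a1 and -0.44 (SE 0.30) for Rpl7l1 (limma adjusted p = 0.9999 for both). Without CRS replicate 2 that of Rps3a1 was 0.35, and without CRS replicate 1 that of Rpl7l1 was -0.27.

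Other TOP messenger RNAs, which encode translation factors and related proteins, shared the dip in part. In 9 of the 16 listed, CRS replicate 2 was lowest, against 27.2% of all genes tested. The median deviation of the 16 there was -0.50, against -1.62 for the 79 genes. All listed genes with a coding sequence under 900 nt were among the 9, and those not lowest there had 1119 nt or more. The part of length in this dip was not tested. Of the 16, 0 passed the adjusted threshold, 1 was above 0 and 15 were below, with a median log2 fold change of -0.23. At an unadjusted p under 0.05, 1 was lower, against 1.63% of all genes, namely Nap1l1, a histone chaperone, at 57.7, 51.0 and 52.3 FPKM in the controls and at 29.1, 37.4 and 30.3 FPKM under stress (log2 fold change -0.74, SE 0.28). The translation factor gene Eif3e was at 54.2, 59.9 and 51.7 FPKM in the controls and at 43.6, 28.9 and 50.4 FPKM under stress (-0.46, SE 0.32, and -0.23 without CRS replicate 2). For these 2 of the 16 the groups did not overlap, against 5.19% of all genes lower without overlap.

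The factors that build ribosomes differed among themselves. Of 32 factors of ribosomal RNA synthesis, processing and assembly, 0 passed the adjusted threshold. All 32 had a log2 fold change below 0 and the median was -0.46, beside -0.20 over all genes. Their median deviation was 0.42, 0.18 and 0.20 in CON and -0.57, 0.18 and -0.34 in CRS. CRS replicate 2 was the lowest library for 3 of the 32, against 27.2% of all genes tested. It lay below all controls for 11 of the 32, against 34.1% of all genes tested. Nhp2, a protein of box H/ACA particles, had the order of the ribosomal proteins, at 162.7, 257.1 and 273.5 FPKM in the controls and at 302.7, 73.0 and 302.6 FPKM under stress. Nop10, of the same particles, did as well in having CRS replicate 2 lowest and CRS replicates 1 and 3 highest. Both have short coding sequences, 459 nt for Nhp2 and 192 nt for Nop10. Gar1 (693 nt) and Dkc1 (1527 nt), also of these particles, did not have this order. Another short one, Nop16 (534 nt), was lowest in CRS replicate 1. The part of length in this order was not tested. In 8 of the 32 all CRS values lay below all CON values, against 5.19% of all genes. Among them was Npm1, a nucleolar chaperone, at 354.7, 367.2 and 294.0 FPKM in the controls and at 162.6, 188.1 and 229.2 FPKM under stress. At an unadjusted p under 0.05, 3 of the 32 were lower, against 1.63% of all genes, and 0 higher, against 0.919%. Dkc1, the pseudouridine synthase of box H/ACA particles, was at 28.5, 15.2 and 32.0 FPKM in the controls and at 11.4, 15.6 and 8.25 FPKM under stress. Its log2 fold change was -1.07 (SE 0.39, limma unadjusted p = 0.0243, exact permutation p = 0.2), and the groups overlapped. Nop58, a core protein of box C/D particles, was at 14.9, 8.92 and 12.3 FPKM in the controls and at 5.43, 9.40 and 5.12 FPKM under stress (-0.87, SE 0.36). Of 6 markers of cycling cells 0 passed the adjusted threshold and 6 had a fold change below 0, as had 19257 of the 28389 genes tested. At an unadjusted p under 0.05, 3 were lower, against 1.63% of all genes. Their sum was 82.9 to 109.3 FPKM in CON and 43.9 to 81.6 FPKM in CRS. Their part in the values of the assembly factors was not tested.

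Of 8 snoRNA host genes, 8 were below 0 and 0 passed, with a median log2 fold change of -0.30. The lowest p values were those of Snhg5 (-0.49, SE 0.31) and Eif4a2 (-0.77, SE 0.53). That of Eif4a2 was -1.39 without CRS replicate 2, -0.41 without CRS replicate 1 and -0.51 without CRS replicate 3. Of 11 regulators of ribosomal protein translation or transcription, 3 were above 0, 8 below and 0 passed. Their median deviation in CRS replicate 2 was 0.95, opposite to that of the ribosomal proteins. Most of the 11 have longer coding sequences, up to 7647 nt for Mtor, and other coding genes of 900 nt and more had a median of 0.38 there. Of the short ones, Eif4ebp1 (351 nt) and Rheb (552 nt) were lowest in CRS replicate 2, and Eif4ebp2 (360 nt) was highest. The part of length in this contrast was not tested. Myc, a transcription factor that drives ribosome production, was at 15.3, 12.5 and 17.4 FPKM in the controls and at 6.32, 16.8 and 7.01 FPKM under stress (log2 fold change -0.72, SE 0.41). It was -1.16 without CRS replicate 2 and -0.46 without CRS replicate 1. Rheb, the activator of mTOR, was at 13.2, 15.3 and 11.7 FPKM in the controls and at 8.39, 8.19 and 11.9 FPKM under stress (-0.51, SE 0.30). In both genes the groups overlapped.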

How the data were processed

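The deposited values were FPKM, made by the authors, 1 file per library; reads were aligned with HISAT2 to GRCm39, per the submitters' processing notes, and the counting program and annotation are not given in the sources used here. Symbols, types and lengths came from GENCODE M21 (GRCm38), which held 54079 of the 54146 IDs. Multiples of a constant step per library, which gave the depths, were found after undoing the length scaling of FPKM: 0.05 was the tolerance met by 98.1% to 98.3% of values up to 100 fragments. Strand is not given, so reads of antisense genes cannot be told apart.

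Genes averaging 0.1 FPKM or more were tested as log2(FPKM + 0.1), a scale that understates changes of low genes. CRS and CON, 3 libraries each, were compared with limma 3.58.1 (R 4.3.3, mean-variance trend, two-sided, Benjamini-Hochberg over all genes tested, threshold 0.05). The exact permutation test of 3 against 3 cannot go below p = 0.1. The fit was tested on simulated data. Coding length is that of the longest coding sequence among principal transcripts, without the stop codon. Python 3.11.15, pandas 2.3.3, numpy 2.4.6 and matplotlib 3.10.9 were used.

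The members and gene lists were chosen with earlier results of these data known. Genes named were those with the highest and lowest means, fold changes and spreads, the paralogs with their partners, genes at the 1 FPKM limit, and the 2 lowest p values of each further list. Rps4x, Rps20, Rpl35, Rpl38, Rps6, Rps18, Rps10, Npm1, Nhp2, Nop10, Gar1, Nop16 and Tnnc2 were named after their values or sequences were seen. Values of some single genes are not reported here.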

Additional observations from a re-analysis of the deposited data

How the results depend on the processing

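In none of the 22 alternatives run did any of the 79 genes pass the adjusted threshold. With each library left out in turn, the count of genes above 0 ran from 0 to 75, that of genes at an unadjusted p under 0.05 from 0 to 8 higher and 0 to 1 lower, and that of genes without overlap from 0 to 66 higher and 0 to 1 lower. Over all genes tested, 0.557% to 2.49% were higher and 0.638% to 14.6% lower at that p in these fits. Without overlap, 2.75% to 7.46% of all genes were higher and 7.11% to 27.4% lower. The median SD over libraries ran from 0.48 to 1.00, the ratio of summed FPKM (CRS over CON) from 0.93 to 1.64, and the median fold change from -0.52 to 0.70. Genes above 0 numbered 68 under median-ratio scaling, 4 under equal FPKM sums, 0 without mitochondrial genes in those sums, 2 under quantile normalization, 76 with array weights (median 0.58), 64 with the length correction, 43 when centred on the members' median in each library and 74 without both CON replicate 1 and CRS replicate 2. Under equal FPKM sums 2 genes lay below all controls, Rpl4 and Rpl13a (4.49% of all genes). There were 9 without mitochondrial genes (6.36% of all genes), 14 under quantile normalization (3.71%) and 2 (Rpl3l, Rpl13a) without both libraries (31.1%), where 66 lay above (10.5%). Centring left 1 above (1.16%). Lower genes at an unadjusted p numbered 2 without mitochondrial genes (Rplp2 and Rpl13a, 1.94% of all genes) and 1 under quantile normalization (Rplp2, 1.13%). There was 1 with array weights (Rpl3l, share of all genes not reported here). Without both libraries 1 was lower (Rpl3l, 10.9% of all genes) and 9 were higher (2.71%). The median SD was 0.66 under equal FPKM sums, 0.65 without mitochondrial genes, 0.50 under quantile normalization, 0.20 when centred and 0.31 without both libraries. The cause of these shifts was not tested.

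Of 440 fold changes of 20 named genes over the alternatives, 406 kept their direction and 34 turned. Without mitochondrial genes in the sums they were -0.13 for Rpl37, -0.075 for Rpl39l, -0.11 for Rpl41, -0.13 for Rplp0 and -0.19 for Rps15a. Under quantile normalization they were -0.17 for Rpl37, -0.27 for Rpl41, -0.12 for Rplp0 and -0.23 for Rps15a, and under equal sums -0.025 for Rps15a. With array weights they were 0.049 for Rpl21, 0.46 for Rps27a and 0.30 for Rps3a1, and without both libraries 0.11, 0.096 and 0.096. With libraries left out singly they ran from -1.02 to 0.25 for Rpl21, -0.43 to 1.06 for Rpl37, -0.42 to 1.03 for Rpl39l, -0.40 to 1.11 for Rpl41, -0.18 to 0.71 for Rplp0, -0.39 to 0.92 for Rps15a, -0.95 to 0.30 for Rps27a and -0.60 to 0.35 for Rps3a1. The other 12 kept their sign.

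The replicate block left the median at -0.083 and passed 0 genes. Deviations of same-numbered libraries from their group means had r of -0.12, 0.062 and 0.087 over 28389 genes, and 0 of the 3 control libraries correlated best with its own number. With 3 libraries a group these deviations are tied to each other, so they cannot settle whether same-numbered libraries share a batch. The centring, the fit without both libraries and limma voom on recovered fragments (median -0.079) were chosen after seeing the data. With 3 libraries a group and 1 far from the rest, differences of 1 log2 unit in this set lie within the spread.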
